A study of Homo sapiens with 12 samples.

Results

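The 36 genes described here make or regulate cholesterol and fatty acids. They were taken as a list of symbols, and all 36 were found among the 60651 genes of the count table. They were measured by RNA-seq in 12 libraries from 2 established human cholangiocarcinoma (bile duct cancer) cell lines, EGI-1 and HUCCT1, with 2 libraries in each of 6 conditions and cells collected at 72 h. EGI-1 cells, labelled wild type and grown in DMEM, received DMSO vehicle, 0.5 µM decitabine, 200 nM talazoparib, or both drugs (the combination). HUCCT1 cells, also labelled wild type but grown in RPMI1640, received DMSO vehicle or 1 µM decitabine. Decitabine is a nucleoside analogue that traps DNA methyltransferases and lowers DNA methylation, and talazoparib inhibits and traps PARP enzymes on DNA. The study asked what the PARP inhibitor adds to the DNA methyltransferase inhibitor in these cancer cells. Nothing in the labels says that the 2 libraries of a condition came from separate cultures, so the p-values measure only the spread between these libraries, which may be technical.

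Cholesterol is built from acetyl-CoA through mevalonate, farnesyl pyrophosphate, squalene and lanosterol, and fatty acids are built from the same acetyl-CoA by carboxylation, chain elongation and desaturation. The genes of both routes are switched on by the SREBP transcription factors: SREBF2 encodes the form that acts mainly on sterol genes and SREBF1 the forms that act mainly on fatty acid genes. When sterols are low, SCAP escorts the SREBP proteins out of the endoplasmic reticulum to be cleaved, and when sterols are high, INSIG1 holds them back. Oxysterols act in the other direction through the liver X receptors (LXR), which switch on the exporters ABCA1 and ABCG1, the ubiquitin ligase MYLIP and also SREBF1. INSIG1 and SCD, themselves SREBP targets, are often read as signs of that activity.

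The promoters of these genes are shown first because sterol genes are known for sharing short elements near their start sites. RefSeq promoter windows of 300 bases (GRCh38.p14), reaching from upstream of each start into the transcript, were matched for 31 of the 36 genes in 43 windows. Each window was searched on both strands for TCACNCCAC, a form of the sterol regulatory element bound by SREBP, for CCAAT, bound by NF-Y, and for GGGCGG, bound by Sp1. TCACNCCAC was found in the window of 1 gene, SREBF2, and in 1.13% of all 35116 windows. CCAAT was found in windows of 22 of the 31 genes, in 60.5% of their windows against 34.6% of all windows. GGGCGG was found in windows of 30 of the 31 genes, in 88.4% of their windows against 45.0% of all windows. A shorter form, CACNCCAC, which lies inside TCACNCCAC, was searched after the first result had been seen. It was found in windows of 7 genes (IDI1, SC5D, INSIG1, SREBF2, ABCA1, ACACA and SCD), in 18.6% of the genes' windows against 5.87% of all windows. These counts describe letters in a window and were not tested.

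The SREBF2 window (chr22:41832855-41833154) is printed because it held the sterol element. The windows of SCD (chr10:100346983-100347282), INSIG1 (chr7:155297628-155297927) and MSMO1 (chr4:165327419-165327718) were chosen after the expression values were seen, since these genes carry much of what follows. All 4 lie on the plus strand of GRCh38.p14, and capitals mark TCACNCCAC, CACNCCAC and CCAAT in either orientation. MSMO1 held 4 CCAAT matches, SCD 2, and SREBF2 and INSIG1 1 each.
SREBF2: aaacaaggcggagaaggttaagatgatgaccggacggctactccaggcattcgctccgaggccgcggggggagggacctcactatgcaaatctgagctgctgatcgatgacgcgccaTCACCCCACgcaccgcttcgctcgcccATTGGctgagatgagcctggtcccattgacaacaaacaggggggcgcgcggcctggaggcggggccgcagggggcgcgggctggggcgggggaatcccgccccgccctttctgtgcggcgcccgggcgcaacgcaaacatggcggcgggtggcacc
SCD: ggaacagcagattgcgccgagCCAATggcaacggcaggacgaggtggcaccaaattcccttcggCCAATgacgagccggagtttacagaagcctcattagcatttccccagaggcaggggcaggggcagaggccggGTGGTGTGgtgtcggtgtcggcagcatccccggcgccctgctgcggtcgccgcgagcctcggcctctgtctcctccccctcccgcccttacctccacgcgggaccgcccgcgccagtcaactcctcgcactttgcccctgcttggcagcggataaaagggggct
INSIG1: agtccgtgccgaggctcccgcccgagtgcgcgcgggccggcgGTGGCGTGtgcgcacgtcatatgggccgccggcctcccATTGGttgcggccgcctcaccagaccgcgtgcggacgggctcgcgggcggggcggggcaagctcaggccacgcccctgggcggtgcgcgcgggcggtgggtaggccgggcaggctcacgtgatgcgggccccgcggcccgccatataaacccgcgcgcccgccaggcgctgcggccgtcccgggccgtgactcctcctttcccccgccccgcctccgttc
MSMO1: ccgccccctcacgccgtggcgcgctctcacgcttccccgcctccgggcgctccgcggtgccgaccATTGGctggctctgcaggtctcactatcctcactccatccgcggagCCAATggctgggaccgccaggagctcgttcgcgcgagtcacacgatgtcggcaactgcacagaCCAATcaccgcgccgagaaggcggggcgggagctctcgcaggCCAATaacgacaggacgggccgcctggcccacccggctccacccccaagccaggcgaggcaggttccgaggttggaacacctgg

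Libraries held 23139065 to 33181930 counts in EGI-1 and 32519985 to 34965627 in HUCCT1, with 1.35 to 2.90% of counts on mitochondrial genes. All 36 genes passed the filter on low counts in every fit. Their counts ran from 10 to 88 per library for ABCG1 to 54689 to 141582 for FASN, so that ABCG1 carries far more counting error than the rest. The biliary epithelial markers KRT7, KRT8, KRT18, KRT19, EPCAM, SOX9 and CDH1 were detected in all 12 libraries, but KRT7 had 1185 to 1946 counts in EGI-1 libraries against 129181 to 227208 in HUCCT1 libraries. The hepatocyte markers ALB, APOA1 and TTR summed to at most 7 counts in any library. One library stood apart: EGI-1 combination replicate 2 had 381 counts of the leukocyte gene PTPRC and 148 of the T cell gene CD3E, where the other 7 EGI-1 libraries had at most 7 and 4. The third leukocyte marker, CD14, had 71 counts there and 42 to 96 in the other EGI-1 libraries. The part of this signal in the results was not tested, and the number of the 36 genes called in the combination against each of the other EGI-1 arms is also given without that library.

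In vehicle-treated cells, most of these genes stood at a higher level in HUCCT1 than in EGI-1. To compare genes, levels are given as CPM (counts per 1000000 counts of the library) per kilobase of exon, on one scale over both lines. FASN, the fatty acid synthase, stood at 218 and 217 CPM per kb in the EGI-1 libraries and at 421 and 488 in HUCCT1. SCD, the desaturase that makes oleate from stearate, stood at 148 and 146 in EGI-1 and at 480 and 522 in HUCCT1. ACLY, which releases acetyl-CoA from citrate, came next with 91.6 and 90.0 in EGI-1 and 140 and 150 in HUCCT1. At the other end ABCG1 stood at 0.146 and 0.108 in EGI-1 and at 0.288 and 0.320 in HUCCT1, and ABCA1 at 0.648 and 0.695 against 1.07 and 0.906. The libraries of the lines did not overlap for any of these 5 genes, nor for most others (34 of the 36 in all). The share of all genes without overlap is not given here, so the 34 cannot be read as particular to these genes.

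**Figure D1:**
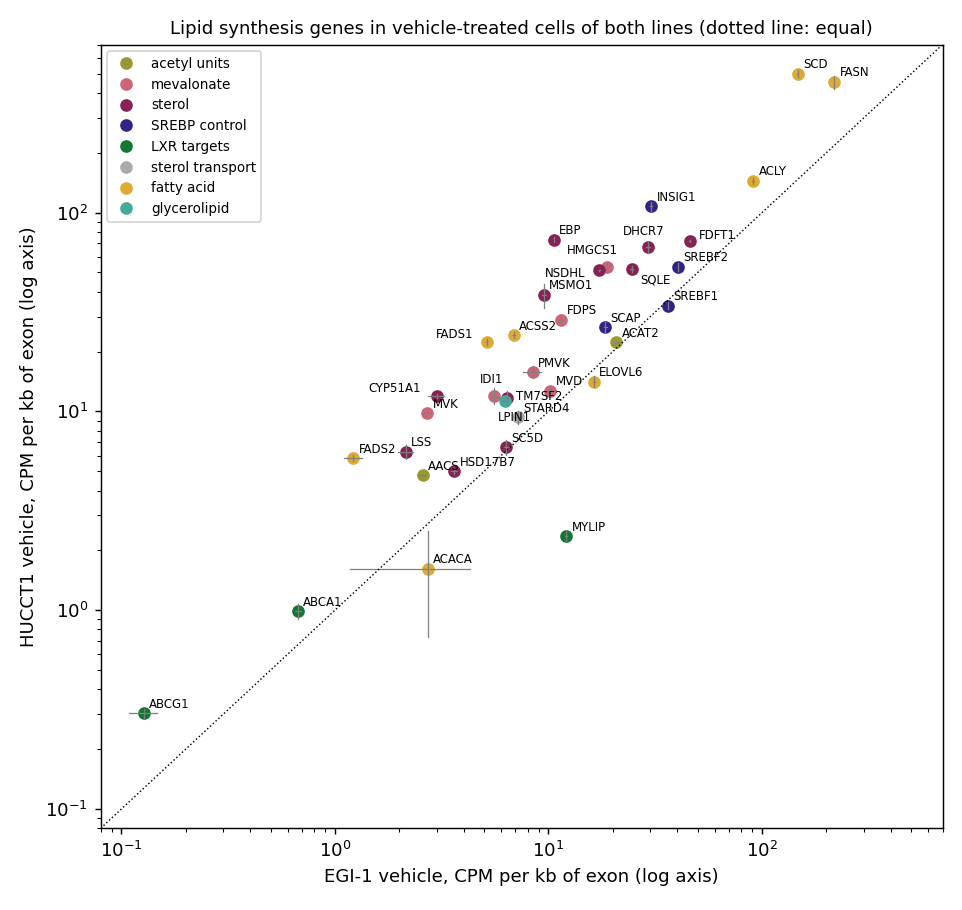
Mean level of each of the 36 genes in vehicle-treated EGI-1 (x axis) and HUCCT1 (y axis), as CPM per kilobase of exon on log axes with colours for roles; grey lines span the 2 libraries of each line. Most points lie above the dotted line of equal levels, MYLIP lies far below it, and ACACA has by far the longest grey lines.

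Between the vehicle arms, 30 of the 36 genes were higher in HUCCT1 and 1 was lower by edgeR's quasi-likelihood test at an adjusted p under 0.05, with p-values adjusted over all 24577 genes tested. Over all genes 55.4% were called, 28.8% higher and 26.6% lower in HUCCT1. The median log2 difference was 0.99 over the 36 genes and 0.00 over all genes. All 6 mevalonate genes (HMGCS1, MVK, PMVK, MVD, IDI1 and FDPS) and 10 of the 11 sterol genes were among the higher, SC5D being the exception. EBP, the sterol isomerase encoded on the X chromosome, differed most, with 10.6 and 10.6 CPM per kb in EGI-1 against 71.5 and 75.0 in HUCCT1 (log2 difference 2.79, SE 0.097, adjusted p = 1.4e-14 by edgeR). Among the genes higher in HUCCT1 it was followed by the desaturases FADS2 (2.26, SE 0.11, edgeR adjusted p = 3.2e-12) and FADS1 (2.12, SE 0.088, edgeR adjusted p = 1.7e-13), which put double bonds into polyunsaturated fatty acids. The sterol demethylation enzymes MSMO1 (2.02, SE 0.12, edgeR adjusted p = 2.1e-11) and CYP51A1 (2.00, SE 0.12, edgeR adjusted p = 4.2e-11) came next. EBP shares exon sequence on the same strand with 1 unnamed gene and CYP51A1 with 2, so some of their counts may belong to those. MYLIP, the ubiquitin ligase that marks lipoprotein receptors for destruction, was the 1 gene lower in HUCCT1, with 12.2 and 11.9 CPM per kb in EGI-1 against 2.49 and 2.22 (log2 difference −2.36, SE 0.13, edgeR adjusted p = 1.4e-11). The 5 genes that were not called were ACAT2, SC5D, SREBF1, ELOVL6 and ACACA. SREBF1 stood at 36.3 and 36.3 CPM per kb in EGI-1 and 32.6 and 35.6 in HUCCT1, while SREBF2 was called higher, at 40.5 and 40.4 against 50.8 and 56.1. Line, medium and sequencing lane cannot be told apart in this comparison. With upper-quartile scaling the median of all genes moved to −0.11 and that of the 36 genes to 0.86; MVD then lost its call and ELOVL6, at a lower level in HUCCT1, gained one.

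From here levels are CPM with TMM scaling within each line, and each pair of values gives the 2 libraries of an arm. Decitabine alone changed little in EGI-1. Of the 36 genes 1 was called, against 0.544% of the 22406 genes tested, and the median log2 change was −0.04 against 0.00 over all genes. The gene was INSIG1, the sterol sensor that retains SREBP. It stood at 121 and 118 CPM with vehicle and at 98.0 and 93.1 with decitabine, with no overlap between the arms (log2 change −0.32, SE 0.061, edgeR adjusted p = 0.0191). The call was lost without either vehicle library, where 0.101 and 0.0923% of all genes were called. Without decitabine replicate 1 or 2, where 1.76 and 1.2% of all genes were called, 3 genes were called: INSIG1 with TM7SF2 and ABCA1 in one case, INSIG1 with SREBF1 and SCD in the other. ABCA1 stood at 7.97 and 8.56 CPM with vehicle and 10.4 and 12.6 with decitabine, a change that did not pass the test with all libraries. Some markers also stood higher with decitabine than with vehicle. SOX9 stood at 189.6 and 202.7 CPM against 139.6 and 148.8, and KRT7 at 61.17 and 66.64 against 41.23 and 44.9. The 3 endothelial markers summed to 23.4 and 28.5 CPM against 20.8 and 22.4. Among them PECAM1 overlapped, at 3.422 and 5.334 against 3.881 and 4.244. The 4 fibroblast markers, nearly all of it COL1A1, summed to 34.8 and 43.6 against 32.1 and 29.9. EPCAM, at 289.9 and 304.2 against 296.8 and 295.4, overlapped. The part of these markers in the results was not tested.

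Talazoparib alone changed more of them. ACAT2, AACS, HMGCS1, FDPS, SQLE, MSMO1 and ACLY rose and SREBF1, MYLIP and SCD fell, so that 7 genes were called higher and 3 lower, 10 in all, where 4.12% of all genes were called, 2.83% higher and 1.29% lower. The median log2 change was 0.18 over the 36 genes and 0.00 over all genes. MSMO1 went from 28.7 and 30.1 CPM with vehicle to 40.5 and 44.2 with talazoparib (log2 change 0.53, SE 0.096, edgeR adjusted p = 0.00294). AACS, which activates acetoacetate for lipid synthesis, went from 43.1 and 46.8 to 67.1 and 59.4 CPM (0.49, SE 0.076, edgeR adjusted p = 0.00081). HMGCS1, the synthase that makes HMG-CoA, went from 132 and 137 to 180 and 184 CPM (0.44, SE 0.069, edgeR adjusted p = 0.00096). In all 3 genes both treated libraries lay above both vehicle libraries. In either direction, these 2 arms did not overlap in 31 of the 36 genes. The share of all genes without overlap is not given here, so the 31 cannot be read as particular to these genes. FDPS, the farnesyl pyrophosphate synthase (0.32, SE 0.071, edgeR adjusted p = 0.0133), SQLE, the squalene epoxidase (0.31, SE 0.062, edgeR adjusted p = 0.00603), ACLY and ACAT2 completed the genes that rose. The ACAT2 call was lost with a block by title number or by library naming series. SREBF1 fell from 324 and 324 to 240 and 212 CPM (−0.52, SE 0.078, edgeR adjusted p = 0.00083). MYLIP fell from 40.8 and 39.8 to 30.3 and 30.6 CPM (−0.40, SE 0.078, edgeR adjusted p = 0.00494), and SCD from 839 and 831 to 690 and 708 CPM (−0.26, SE 0.051, edgeR adjusted p = 0.00603). The count moved with the share of all genes called. It was 1 (SREBF1) without vehicle replicate 1 and 4 without vehicle replicate 2, where 1.04 and 1.16% of all genes were called, and 6 without talazoparib replicate 1 (1.74%). It was 18 without either decitabine library (7.03 and 6.93%) and 19 when only the vehicle and talazoparib arms were fitted (8.7%). Some markers stood higher with talazoparib than with vehicle. The 3 endothelial markers summed to 26.7 and 25.7 CPM against 20.8 and 22.4. The 4 fibroblast markers, nearly all of it COL1A1, summed to 41.4 and 38.5 against 32.1 and 29.9. SOX9 stood at 217.7 and 215.2 against 139.6 and 148.8. The leukocyte marker CD14 stood lower, at 1.808 and 2.208 CPM against 3.326 and 2.88. KRT19, at 1638 and 1543 against 1559 and 1642, overlapped. Their part in the results was not tested.

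The combination changed most. Of the 17 mevalonate and sterol genes 12 rose and none fell, while SREBF1, MYLIP, INSIG1, SCD, ELOVL6 and FADS2 fell. In total 23 of the 36 genes were called, 17 higher and 6 lower, where 18.7% of all 22406 genes were called, 11.1% higher and 7.61% lower. The median log2 change was 0.23 over the 36 genes and −0.03 over all genes. Without combination replicate 2, the library with PTPRC and CD3E counts, 16 of the 36 genes and 10.7% of all genes were called, all 16 of them among the 23, and ACAT2, MVK, CYP51A1, SC5D, DHCR7, INSIG1 and FADS2 were lost. In that fit 4 of the 6 mevalonate genes and 4 of the 11 sterol genes rose. Without vehicle replicate 2 the count was 13, with 7.76% of all genes called. In 13 of the 23 genes the call was kept whichever of the 8 libraries was left out: AACS, HMGCS1, MVD, SQLE, TM7SF2, MSMO1, SREBF1, ABCA1, MYLIP, ACLY, ACSS2, ELOVL6 and SCD. Some markers of other cells also stood higher in the combination than with vehicle. The 3 endothelial markers summed to 30 and 31.2 CPM against 20.8 and 22.4. Among them PECAM1 overlapped, at 3.561 and 4.655 against 3.881 and 4.244. The 4 fibroblast markers, nearly all of it COL1A1, summed to 52 and 44.7 against 32.1 and 29.9. The leukocyte marker CD14 stood lower, at 1.974 and 2.448 CPM against 3.326 and 2.88. The biliary marker SOX9 stood at 276 and 274.7 CPM against 139.6 and 148.8 and KRT7 at 73.06 and 67.1 against 41.23 and 44.9, while EPCAM stood at 297.1 and 295.7 against 296.8 and 295.4. Mitochondrial genes took 1.37 and 1.40% of counts in the combination and 1.61 and 1.62% with vehicle. Their part in the results was not tested.

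**Figure D2:**
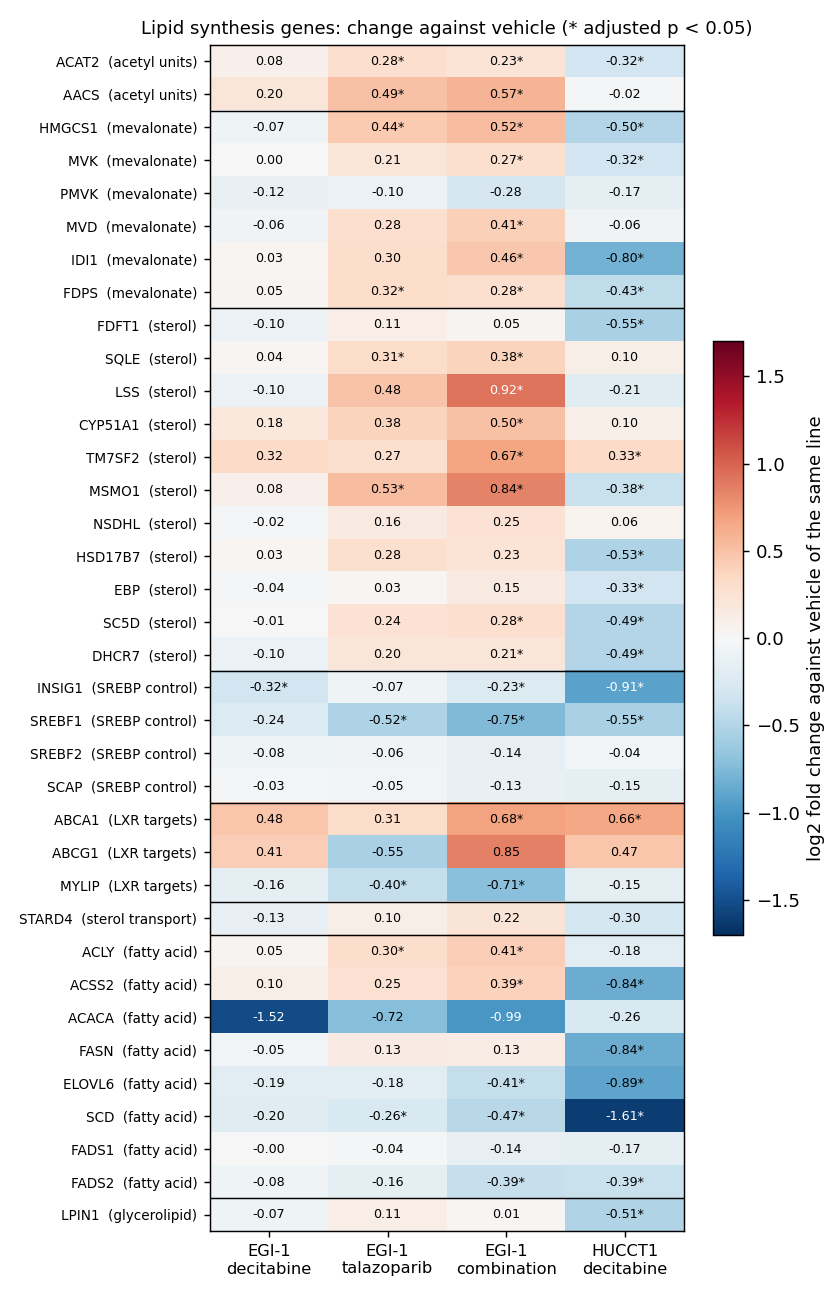
Log2 fold change of each of the 36 genes (rows, with roles in brackets) against vehicle of the same line in 4 treatments (columns); red is higher, blue lower, and an asterisk marks an adjusted p under 0.05 by edgeR. The upper rows are mostly red in the EGI-1 talazoparib and combination columns, PMVK being an exception, and mostly blue in the HUCCT1 column. ACACA shows large values with no asterisk.

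Of the 6 mevalonate genes 5 rose in the combination. HMGCS1 stood at 187 and 198 CPM, against 132 and 137 with vehicle. IDI1, the isopentenyl diphosphate isomerase, stood at 34.4 and 36.8 CPM against 26.5 and 25.3, and MVD, the mevalonate diphosphate decarboxylase, at 72.7 and 66.4 against 53.2 and 51.4. MVK, the mevalonate kinase, and FDPS rose by smaller amounts, with log2 changes of 0.27 and 0.28. The MVK call was lost with upper-quartile scaling and with a block by title number or by library naming series. The next kinase, PMVK, went the other way in value, at 7.59 and 7.45 CPM against 8.28 and 10.0, and did not pass the test. The summed level of the 6 genes was 290.5 and 298.3 CPM with vehicle, 293.9 and 280.8 with decitabine, 372.5 and 376.4 with talazoparib and 391.5 and 394.9 with the combination, so that both arms with talazoparib stood above both arms without it.

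Of the 11 sterol genes 7 rose and none fell in the combination, and all 11 had a positive log2 change. LSS, which closes squalene epoxide into lanosterol, had the largest change and also the widest spread: 25.1 and 38.8 CPM against 18.2 and 15.6 with vehicle (log2 change 0.92, SE 0.18, edgeR adjusted p = 0.00698). Its call was lost without vehicle replicate 2, without either decitabine library, and when only the vehicle and combination arms were fitted. MSMO1, the methylsterol monooxygenase, stood at 46.8 and 58.0 CPM against 28.7 and 30.1 (0.84, SE 0.096, edgeR adjusted p = 7.7e-06). TM7SF2, a sterol reductase, stood at 37.4 and 38.2 CPM against 23.9 and 23.5 (0.67, SE 0.084, edgeR adjusted p = 2.1e-05). TM7SF2 shares exon sequence on the same strand with VPS51, so some of its counts may be that gene's. CYP51A1 and SQLE rose with log2 changes of 0.50 and 0.38, and SC5D and DHCR7, which act in the last steps, with 0.28 and 0.21. The SC5D call was lost with upper-quartile scaling and with a block by title number or by library naming series. FDFT1, the squalene synthase, stood at 262 and 261 CPM against 254 and 251, NSDHL at 43.9 and 45.5 against 37.7 and 37.4, HSD17B7 at 21.5 and 22.6 against 19.2 and 18.3, and EBP at 22.3 and 22.9 against 20.4 and 20.4; none of these 4 passed the test.

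AACS rose to 66.9 and 66.8 CPM in the combination against 43.1 and 46.8 with vehicle (log2 change 0.57, SE 0.076, edgeR adjusted p = 4e-05). ACAT2, the thiolase that joins acetyl-CoA units in the cytosol, rose by 0.23 on the log2 scale. Its call was lost with upper-quartile scaling and with a block by title number. The exons of ACAT2 overlap TCP1 and SOD2 on the opposite strand, and whether the counting used strand is not given in the sources used here. ACLY rose to 686 and 683 CPM against 518 and 509, and ACSS2, which makes acetyl-CoA from acetate, to 50.4 and 52.3 against 39.5 and 38.8. All the libraries of the combination lay above all those of vehicle in these 4 genes, which supply acetyl units.

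The regulators did not rise with the sterol genes. SREBF1 fell to 198 and 188 CPM in the combination against 324 and 324 with vehicle (log2 change −0.75, SE 0.079, edgeR adjusted p = 5e-06), the lowest of the 4 EGI-1 arms. INSIG1 fell to 102 and 102 CPM against 121 and 118 (log2 change −0.23). SREBF2 stood at 323 and 317 CPM against 354 and 353 and SCAP at 116 and 114 against 128 and 124, and neither passed the test. Of the LXR targets, MYLIP fell to 24.8 and 24.4 CPM against 40.8 and 39.8 (−0.71, SE 0.079, edgeR adjusted p = 6e-06), whereas ABCA1 rose to 13.9 and 12.6 CPM against 7.97 and 8.56 (0.68, SE 0.13, edgeR adjusted p = 0.00105). ABCG1 stood at 1.63 and 1.45 CPM against 0.970 and 0.720 and was not called. STARD4, which carries sterol through the cytosol, stood at 47.5 and 55.5 CPM against 46.1 and 42.7 and was not called.

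Of the 8 fatty acid genes 2 rose (ACLY and ACSS2) and 3 fell. SCD fell to 596 and 612 CPM in the combination against 839 and 831 with vehicle (log2 change −0.47, SE 0.051, edgeR adjusted p = 5e-06). ELOVL6, which lengthens palmitate, fell to 94.6 and 98.9 CPM against 130 and 127 (−0.41, SE 0.068, edgeR adjusted p = 0.00035). FADS2 fell to 11.4 and 9.97 CPM against 12.6 and 15.4 (−0.39, SE 0.12, edgeR adjusted p = 0.0361), a call lost with DESeq2, with a block by title number or by library naming series, and without vehicle replicate 2 or combination replicate 2, with a log2 change of −0.53 to −0.24 as each library was left out. FADS1 and FADS2 overlap each other on opposite strands, and FADS2 shares exon sequence on the same strand with FEN1, a nuclease of DNA replication, so some of its counts may be that gene's. FADS1 stood at 51.4 and 52.3 CPM against 56.8 and 57.3, FASN at 2476 and 2345 against 2206 and 2199, and LPIN1, a phosphatidate phosphatase of glycerolipid synthesis, at 79.5 and 83.2 against 83.1 and 78.0; none passed the test. ACACA, the carboxylase that commits acetyl-CoA to fatty acids, had the widest spread between libraries and was not called in any comparison with all libraries. Its vehicle libraries stood at 60.5 and 16.5 CPM in EGI-1 and at 8.97 and 30.2 in HUCCT1. With decitabine in HUCCT1 it was called lower without vehicle replicate 1 (log2 change −0.91) and higher without vehicle replicate 2 (0.85). The higher library exceeded the lower by up to 3.66 times within an arm, where the largest such ratio among the 34 genes other than ACACA and ABCG1 was 1.55.

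**Figure D3:**
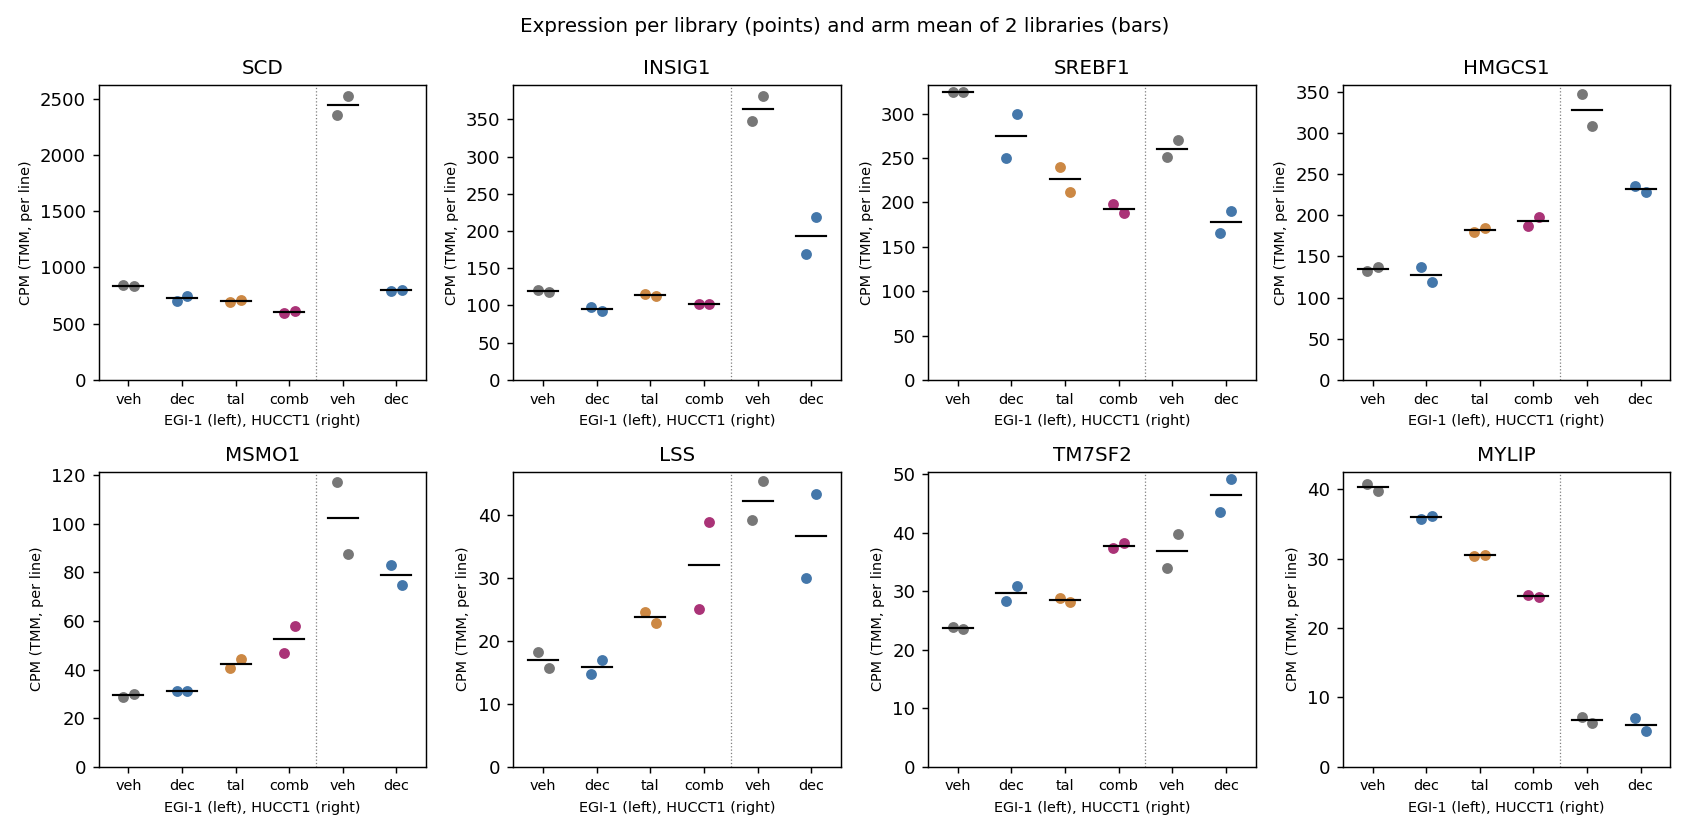
CPM of 8 of the genes in each of the 12 libraries (points; veh vehicle, dec decitabine, tal talazoparib, comb combination) with the mean of the 2 libraries of an arm (bars), EGI-1 left and HUCCT1 right of the dotted line. SREBF1, MYLIP and SCD are lowest in the combination among EGI-1 arms, MSMO1 and TM7SF2 highest, and SCD drops from 2354 and 2526 to 792 and 802 CPM in HUCCT1.

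Against decitabine alone, the combination had 12 of the 36 genes higher and 3 lower, 15 in all, where 7.68% of all genes were called, 4.42% higher and 3.26% lower. The largest rises were LSS, from 14.7 and 16.9 to 25.1 and 38.8 CPM (log2 change 1.02, SE 0.18, edgeR adjusted p = 0.00933), and MSMO1, from 31.3 and 31.0 to 46.8 and 58.0 CPM (0.75, SE 0.095, edgeR adjusted p = 7e-05). HMGCS1 (0.59, SE 0.070, edgeR adjusted p = 3.3e-05), MVD (0.47, SE 0.082, edgeR adjusted p = 0.00146) and IDI1 (0.43, SE 0.098, edgeR adjusted p = 0.011) followed. MYLIP (−0.55, SE 0.080, edgeR adjusted p = 0.00029), SREBF1 (−0.51, SE 0.079, edgeR adjusted p = 0.00058) and SCD (−0.26, SE 0.051, edgeR adjusted p = 0.0034) were lower. The LSS call was lost without either decitabine library and without either talazoparib library, and its log2 change ran from 0.67 to 1.30 as each library was left out. Without combination replicate 2 the count was 11, where 3.63% of all genes were called, with IDI1, TM7SF2, STARD4 and ACSS2 lost.

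Against talazoparib alone, the combination had 2 of the 36 genes called, where 1.92% of all genes were called. TM7SF2 was higher, at 37.4 and 38.2 CPM against 28.9 and 28.2 (log2 change 0.41, SE 0.083, edgeR adjusted p = 0.0155), and SCD was lower, at 596 and 612 against 690 and 708 (−0.21, SE 0.051, edgeR adjusted p = 0.042). Without combination replicate 2, or without talazoparib replicate 1 or 2, none of the 36 genes was called by edgeR, with 0.642, 0.687 and 0.469% of all genes called, and without either decitabine library 7 were called, with 4.26 and 4.15% of all genes. Without either vehicle library the SCD call was lost. The median log2 change was 0.02 over the 36 genes and −0.01 over all genes. The comparisons with vehicle share the vehicle libraries and those of the combination share its libraries, so they are not independent of one another.

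The combination was also set against the sum of the single-drug changes. By edgeR with all libraries none of the 36 genes departed from the sum, where 0.161% of all genes did. DESeq2 also called none. An unadjusted p under 0.05 by edgeR was found in 1 of the 36 genes and in 757 of the 22406 genes tested. HMGCS1 had log2 changes of −0.07 with decitabine, 0.44 with talazoparib and 0.52 with both; for SREBF1 the 3 values were −0.24, −0.52 and −0.75, and for MYLIP −0.16, −0.40 and −0.71. The 1 gene with an unadjusted p under 0.05 was STARD4, with a departure of 0.25 (SE 0.12). In HMGCS1 the departure was 0.15 and in SREBF1 0.01.

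In HUCCT1, decitabine alone lowered genes of both routes. By edgeR 19 of the 36 genes fell and 2 rose, 21 in all, where 33.5% of the 22479 genes tested were called, 19.6% higher and 13.9% lower. Of the 21 calls 12 were kept whichever of the 4 libraries was left out. Among the genes that fell, ACAT2, MVK, FDPS, MSMO1, EBP, SC5D and FADS2 lost theirs in at least 1 such fit, the log2 change of MSMO1 running from −0.58 to −0.17. The median log2 change was −0.32 over the 36 genes and 0.00 over all genes. SCD fell most, from 2354 and 2526 CPM with vehicle to 792 and 802 with decitabine (log2 change −1.61, SE 0.10, edgeR adjusted p = 3.3e-12). INSIG1 fell from 347 and 382 to 169 and 219 CPM (−0.91, SE 0.12, edgeR adjusted p = 1.2e-06). ELOVL6 fell from 102 and 88.3 to 57.1 and 45.4 CPM (−0.89, SE 0.12, edgeR adjusted p = 2.3e-06), ACSS2 from 114 and 122 to 63.9 and 67.6 CPM (−0.84, SE 0.11, edgeR adjusted p = 9e-07), and FASN from 3674 and 4199 to 2043 and 2351 CPM (−0.84, SE 0.11, edgeR adjusted p = 6.8e-07). In all 5 genes both treated libraries lay below both vehicle libraries. In either direction, these 2 arms did not overlap in 27 of the 36 genes. The share of all genes without overlap is not given here, so the 27 cannot be read as particular to these genes. The 36 genes took 1.06 and 1.12% of all counts with vehicle and 0.684 and 0.716% with decitabine, against 0.552 to 0.661% in the 8 EGI-1 libraries.

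The fall in HUCCT1 reached most roles. Of the 6 mevalonate genes 4 fell, led by IDI1, from 52.8 and 43.0 to 28.4 and 26.5 CPM, with HMGCS1 from 346.9 and 308.3 to 236 and 228; MVD stood at 53.7 and 57.7 against 47.7 and 59.2 and PMVK at 15.8 and 13.6 against 11.97 and 14.19, both with overlapping libraries. Of the 11 sterol genes 6 fell (FDFT1, MSMO1, HSD17B7, EBP, SC5D and DHCR7). FDFT1 went from 337 and 342 to 229 and 234 CPM and DHCR7, the last reductase for cholesterol, from 403 and 451 to 303 and 304. SQLE, at 201 and 214 CPM with vehicle and 216 and 231 with decitabine, CYP51A1, NSDHL and LSS did not pass the test. SREBF1 fell from 251 and 270 to 165.8 and 190.6 CPM, while SREBF2 stood at 382 and 417 against 375 and 401 and SCAP at 146.6 and 162.9 against 134 and 145, neither of them called. LPIN1 fell from 125 and 125 to 90.2 and 85.4 CPM. The genes that rose were ABCA1, from 11.3 and 9.49 to 18.5 and 14.3 CPM (log2 change 0.66, SE 0.15, edgeR adjusted p = 0.00134), and TM7SF2, from 34.0 and 39.8 to 43.6 and 49.2 CPM (0.33, SE 0.12, edgeR adjusted p = 0.0349). The TM7SF2 call was lost with DESeq2 and without vehicle replicate 1 or decitabine replicate 2, and the ABCA1 call without decitabine replicate 1.

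Other transcripts moved with decitabine in HUCCT1. Mitochondrial genes took 2.90 and 2.50% of counts with vehicle and 2.05 and 1.60% with decitabine, with no overlap. COL1A1, a fibroblast marker here, had 805 and 896 counts with vehicle and 5089 and 5611 with decitabine. The 4 fibroblast markers summed to 24.3 and 26.6 CPM against 145 and 171. At low counts, PDGFRA went from 2 and 2 with vehicle to 32 and 29, and DCN from 0 and 0 to 12 and 7. COL3A1 was at 0 to 2 counts in every HUCCT1 library. The 3 endothelial markers summed to 4.98 and 3.68 CPM with vehicle and 22.4 and 23.2 with decitabine. Among the biliary markers, KRT8 stood at 3637 and 3624 CPM with vehicle and 1973 and 2127 with decitabine, KRT18 at 1044 and 1058 against 577.3 and 550.6, KRT7 at 5875 and 6739 against 3637 and 4157, and KRT19 at 2237 and 2753 against 1420 and 1889, with both treated libraries below both vehicle libraries in all of them. EPCAM stood at 155.6 and 147.7 CPM against 134.5 and 143.7, and SOX9, at 218.4 and 268.1 against 232 and 273.4, overlapped. CDH1 went the other way, from 275.4 and 284.2 CPM with vehicle to 476.9 and 449.4 with decitabine, with no overlap. Their part in the fall of the lipid genes was not tested. In bulk RNA, fewer cells of a kind and less RNA per cell cannot be told apart.

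**Figure D4:**
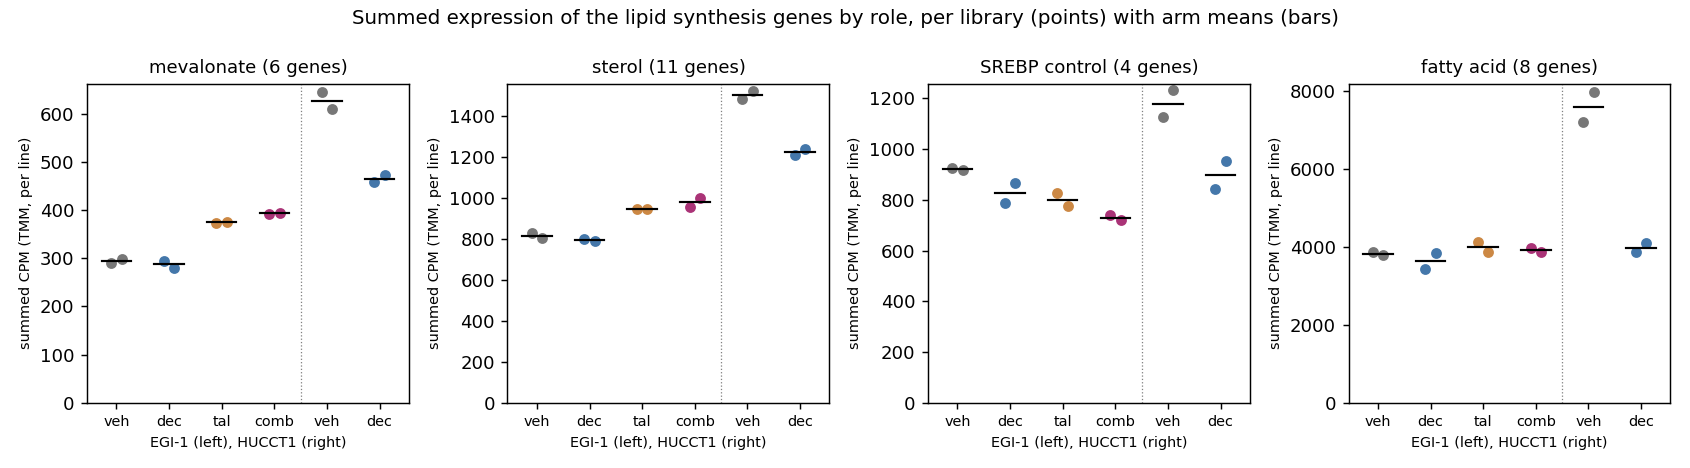
Summed CPM of the mevalonate, sterol, SREBP control and fatty acid genes in each library (points) with arm means (bars), EGI-1 left and HUCCT1 right of the dotted line. Mevalonate and sterol sums stand higher in the EGI-1 arms with talazoparib, and every sum stands lower with decitabine than with vehicle in HUCCT1, most of all the fatty acid sum.

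The response to decitabine was then compared between the lines by an interaction term over their 8 vehicle and decitabine libraries. The change was more negative in HUCCT1 for 14 of the 36 genes and more positive for none, where 14.8% of all genes were called and 7.27% were called in the negative direction. The median difference was −0.32 over the 36 genes and −0.01 over all genes. SCD differed most: it went from 839 and 831 to 705 and 745 CPM in EGI-1 and from 2354 and 2526 to 792 and 802 in HUCCT1 (log2 difference −1.43, SE 0.11, edgeR adjusted p = 3.5e-08). ACSS2 (−0.96, SE 0.13, edgeR adjusted p = 3e-05), IDI1 (−0.85, SE 0.16, edgeR adjusted p = 0.00101), FASN (−0.81, SE 0.14, edgeR adjusted p = 0.00051) and ELOVL6 (−0.72, SE 0.15, edgeR adjusted p = 0.00207) followed. SREBF1, which was lower in value with decitabine in both lines, did not differ past the threshold (−0.33), nor did ABCA1 (0.16) or TM7SF2 (−0.01). The dose was 1 µM in HUCCT1 and 0.5 µM in EGI-1, so that line, dose, medium and lane cannot be told apart. Without EGI-1 vehicle replicate 2 the count was 6 and without EGI-1 vehicle replicate 1 it was 8, with 8.03 and 8.38% of all genes called; IDI1, INSIG1, ACSS2, FASN, ELOVL6 and SCD were called whichever of the 8 libraries was left out.

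Set side by side, the 2 treatments that called most of these genes had several genes called in opposite directions. Of the 17 genes that rose with the combination in EGI-1, 9 fell with decitabine in HUCCT1 (ACAT2, HMGCS1, MVK, IDI1, FDPS, MSMO1, SC5D, DHCR7 and ACSS2), out of the 19 that fell there. Over the 19937 genes tested in both lines, 11.1% of the 2424 that rose with the combination fell with decitabine in HUCCT1 and 43.7% rose. Of the 6 genes that fell with the combination, 5 also fell in HUCCT1 (INSIG1, SREBF1, ELOVL6, SCD and FADS2), where 37.7% of the 1612 such genes over all did, and ABCA1 and TM7SF2 rose in both. When 1 library was left out, ACAT2, MVK, FDPS, SC5D and FADS2 lost their calls in both contrasts, IDI1, DHCR7 and INSIG1 in the combination, and MSMO1, ABCA1 and TM7SF2 in HUCCT1. HMGCS1, for one, had a log2 change of 0.52 in the first and −0.50 in the second, and SCD −0.47 and −1.61. The treatments, doses and lines all differ, and the difference between these 2 contrasts was not tested.

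A wider list of 55 genes of sterol handling, lipid assembly, SREBP processing, LXR action, isoprenoid use and fatty acid oxidation was read in the same fits. In the EGI-1 combination 16 of the 54 tested rose and 5 fell, with a median log2 change of 0.09, where 11.1% of all genes rose and 7.61% fell. Fewer of them were called without combination replicate 2, as was true of all genes. With all libraries, 6 of the 9 sterol handling genes tested and 8 of the 18 lipid assembly genes rose, with none falling in either group. GRAMD1A, which moves sterol from the plasma membrane to the endoplasmic reticulum, rose by 0.66 on the log2 scale, and SCARB1, a receptor for high-density lipoprotein, by 0.53. With talazoparib alone 4 rose and 1 fell, where 2.83% of all genes rose and 1.29% fell. SCARB1 at 0.42 and DGAT2, which completes triglycerides, at 0.38 rose, and CPT1A, which admits fatty acids to mitochondria, fell by 0.42. With decitabine alone in EGI-1 GRAMD1A (0.42) and DGAT2 (0.40) rose and none fell, where 0.544% of all genes were called. In HUCCT1, decitabine raised 9 of 54 and lowered 19, with a median of −0.24, where 19.6% of all genes rose and 13.9% fell. GRAMD1B rose most there, by 3.03 on the log2 scale, LPIN2 rose by 0.87, and GGPS1, which makes geranylgeranyl pyrophosphate from the product of FDPS, fell by 0.75.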

How the data were processed

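RNA-seq gene counts were used as the authors deposited them: 1 table of raw counts per gene for 12 libraries, with GENCODE-style identifiers. The submitters' processing notes list fastp, Trim Galore, HISAT2, featureCounts and GRCh38; the study's methods name another aligner and counter for EGI-1 only, and the table has the layout that featureCounts writes. The notes give Trizol extraction and the methods a column kit with a stranded ribosome-depleted library. Strand use in counting is not given in the sources used here. Library names of the talazoparib arms carry another number than the labelled dose, and the labels were followed.

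Genes were filtered with filterByExpr, scaled by TMM and tested with edgeR 4.0.16 (robust quasi-likelihood, R 4.3.3), with Benjamini-Hochberg adjustment over all genes tested and a threshold of 0.05. The 8 EGI-1 libraries shared 1 fit, the 4 HUCCT1 libraries another, and the 8 vehicle and decitabine libraries of both lines shared the last. The standard error (SE) is the absolute log2 change divided by the square root of the F statistic. The scripts were tested on simulated data. Alternatives were DESeq2 1.42.0, RLE and upper-quartile scaling, no filter, only the arms compared, blocks by title number or library naming series, and leaving out each library. Exon lengths and overlaps came from GENCODE release 44. All 36 genes are named; full statistics go to at most the 5 largest called changes in each direction, and neighbouring genes to at most 3 per comparison. The genes, lists and tests were chosen with earlier results of these data known. No columns of other samples were present.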

Additional observations from a re-analysis of the deposited data

Results flagged for a closer look

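The change with decitabine differed between HUCCT1 and EGI-1 in 14 of the 36 genes, by an interaction term in edgeR (HUCCT1 minus EGI-1, log2), where 14.8% of all genes were called. Of the 14 calls 6 were kept whichever of the 8 libraries was left out (IDI1, INSIG1, ACSS2, FASN, ELOVL6 and SCD), and those of ACAT2, HMGCS1 and SC5D were also lost with upper-quartile scaling. Among the genes of acetyl units, mevalonate and sterols the differences were −0.42 for ACAT2, −0.45 for HMGCS1, −0.85 for IDI1, −0.51 for FDPS, −0.47 for FDFT1, −0.58 for HSD17B7, −0.50 for SC5D and −0.42 for DHCR7. Among the regulators and the fatty acid and glycerolipid genes they were −0.61 for INSIG1, −0.96 for ACSS2, −0.81 for FASN, −0.72 for ELOVL6, −1.43 for SCD and −0.46 for LPIN1. The dose was higher in HUCCT1, and line, dose, medium and lane cannot be told apart.

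Counts of the leukocyte genes PTPRC and CD3E, which no comparison used, stood far above the vehicle level in 1 EGI-1 library. EGI-1 combination replicate 2 had 381 counts of PTPRC and 148 of CD3E, against at most 1 and 0 in the EGI-1 vehicle libraries. EGI-1 talazoparib replicate 2 had 7 and 4. In HUCCT1, CD3E had 17 and 23 counts with decitabine and 0 and 1 with vehicle. Their part in the results was not tested.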

How the results depend on the processing

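No gene called with all libraries changed direction under any alternative run. ACACA, uncalled with all libraries in HUCCT1 (−0.26), was called at −0.91 without vehicle replicate 1 and at 0.85 without vehicle replicate 2. With 2 libraries per condition, what changed was how many genes passed the threshold. In EGI-1, decitabine against vehicle called 1 of the 36 genes; the count was 2 with no filter on low counts (0.834% of all genes called), 0 with only the arms compared (0.202%), and 0 with the block by title number (0.268%) or by library series (0.335%). Talazoparib against vehicle called 10, and 19 with only the arms compared (8.7%). Combination against talazoparib called 2, and 1 with RLE factors (1.96%), 7 with no filter (2.23%), 1 with either block (1.11 and 1.34%), 3 with upper-quartile factors (1.83%) and 3 with only the arms compared (3.33%). Leaving out each library in turn gave 0 to 3 genes for decitabine, 1 to 18 for talazoparib, 13 to 26 for the combination against vehicle and 0 to 7 for the combination against talazoparib. For the decitabine effect between lines, it gave 6 to 14. The share of all genes called moved in the same fits, from 0.0923 to 1.76%, 1.04 to 7.03%, 7.76 to 22.4%, 0.469 to 4.26% and 8.03 to 13.4% in that order. The cause was not tested, though a fit with 1 library in an arm takes that arm's spread from the others.

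In EGI-1, samples that share a title number did not deviate together (correlations of −0.07 to 0.06), so the number was not taken as a pairing. In HUCCT1 the correlation was 0.11 for the 1 pair of arms, and more of all genes were called with the block than without it. The main HUCCT1 fit used no block, and whether the number marks a pairing there was not tested. With the replicate block by title number, 19 genes were called in the EGI-1 combination against vehicle and 26 in HUCCT1, against 23 and 21 without it, while the share of all genes called went from 18.7 to 15.7% and from 33.5 to 45.1%. ACAT2, MVK, SC5D and FADS2 lost their calls in the combination, and LSS, SCAP, STARD4, ACLY and FADS1 gained one, as lower, in HUCCT1. Over all genes, upper-quartile scaling moved the balance of calls in the combination from 2489 higher and 1705 lower to 2177 higher and 2244 lower.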

Other observations

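Between the vehicle arms, 28 of the 55 neighbouring lipid genes were higher in HUCCT1 and 14 lower by edgeR, with a median log2 difference of 0.25, where 28.8% of all genes were higher and 26.6% lower. Of the 10 sterol handling genes 6 were higher and none lower, and of the 18 lipid assembly genes 12 were higher and 4 lower, whereas of the 8 fatty acid oxidation genes 2 were higher and 5 lower. The decitabine effect was more negative in HUCCT1 than in EGI-1 for 14 of the 55 and more positive for 1, where 14.8% of all genes were called and 7.27% in the negative direction. DGAT2 (−0.77) and CPT1A (−0.71) were the most negative, and LPIN2 (0.76) was the positive one.

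FASN, SCD and ACLY together took 56.9 to 59.5% of the summed CPM of the 36 genes in the EGI-1 libraries. In HUCCT1 they took 62.3 and 64% with vehicle and 52.3 and 53.4% with decitabine, where the share of SCD went from 21.8 and 21.7% to 11.9 and 11.4%. The other 33 genes summed to 4067 and 4197 CPM with vehicle and 3169 and 3276 with decitabine.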
